A study of Rattus norvegicus with 17 samples.

Results

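Complement and coagulation genes encode plasma proteins that the liver makes and releases into the blood. The set described here was a list of 38 genes matched by the platform's gene symbol, and 32 of them had a probe set that carries their symbol alone, out of 14217 genes tested. C2, Cfb, F7, F11, F13b and Kng1 had no such probe set and were not analysed here. Liver RNA came from 17 male Harlan Sprague Dawley rats given corn oil alone (vehicle, 5 rats) or isopropylated phenol phosphate in corn oil at 76.5, 153, 305.5 or 611 mg/kg body weight (3 rats each), of which the protocol rounds 2, to 77 and 306 mg/kg, and which span 0.169 to 1.35 mmol/kg. Isopropylated phenol phosphate is a mixture of organophosphate esters used as a flame retardant and plasticizer. All rats, vehicle rats included, received 4 daily doses by gavage, pieces of the left liver lobe were taken on day 5, and each rat had 1 array. The study asked how liver expression changes with dose. Each dose was set against the same vehicle rats, so the 4 comparisons share their controls.

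Complement is a cascade of proteases and binding proteins that tags microbes and damaged cells. Antibody complexes start it through the C1 proteases and sugar patterns start it through mannose-binding lectins and their MASP proteases, and both routes meet at C3, from which the terminal components build a pore in the target membrane. Coagulation is a second protease cascade, which ends in thrombin and fibrin and is held back by protein C, protein S and serpins, while plasmin dissolves the clot. Most of these proteins are made by hepatocytes and their genes are known to depend on liver-enriched transcription factors such as HNF1, HNF4, FOXA and C/EBP.

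Masp1, Pros1 and Serpind1 passed the test at 1 dose or more, and the share of members called lay near that of all genes at each dose. At 76.5 mg/kg, 0 of 32 members passed the test in limma (Benjamini-Hochberg adjusted p under 0.05, which is the rule for a call throughout), beside 0.267% of all genes, and 0 had an unadjusted p under 0.05, beside 10.7% of all genes. At 153 mg/kg, 0 of 32 passed in limma beside 0.746% of all genes, and 3 had an unadjusted p under 0.05, beside 11.9%. At 305.5 mg/kg, 1 of 32 passed beside 2.22% of all genes, and this was Masp1, which was lower, as were 1.47% of all genes. There 5 members had an unadjusted p under 0.05, beside 13.5% of all genes. At 611 mg/kg, 3 of 32 passed beside 7.46% of all genes, with Masp1 and Serpind1 lower (2.42% of all genes were lower) and Pros1 higher (5.04% were higher). There 5 members had an unadjusted p under 0.05, beside 24.2% of all genes. Between 611 and 305.5 mg/kg, 0 of 32 passed in limma beside 0.324% of all genes, and 0 had an unadjusted p under 0.05, beside 16% of all genes. Over the mean of the 4 doses against vehicle only Masp1 passed among the members, lower, beside 4.01% of all genes in either direction and 1.83% lower, and along the rank of the dose (0 for vehicle to 4 for 611 mg/kg) Masp1 (lower) and Pros1 (higher) passed, beside 6.74% of all genes, 2.78% lower and 3.96% higher.

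Values are log2 signals, so a difference of 1 is a doubling, and ± after a difference is its standard error. The median difference of the 32 members was -0.07 at 76.5 mg/kg, 0.03 at 153 mg/kg, 0.03 at 305.5 mg/kg and -0.01 at 611 mg/kg. The same medians over all genes were 0.0094, 0.00746, 0.00695 and -0.0029. The 95% interval of the difference lay within 0.5 on either side of 0 for 30, 30, 28 and 27 of 32 members at the 4 rising doses, against 82.6%, 81.3%, 80.1% and 72.3% of all genes. For most members a change of signal of more than 0.5 log2 units at any dose was therefore outside the interval. C6 was not among them at any dose, and its signal varied between rats of 1 group with an SD of 0.463, the widest of the 32 members. The median SD within groups was 0.129 over members and 0.152 over all genes. The mean signal of the members had a median of 13.1 and a highest value of 14.8, and the measured range ended at 15.4. Near that top a change of the RNA may show only in part, so these SDs and intervals describe the signal.

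**Figure D1:**
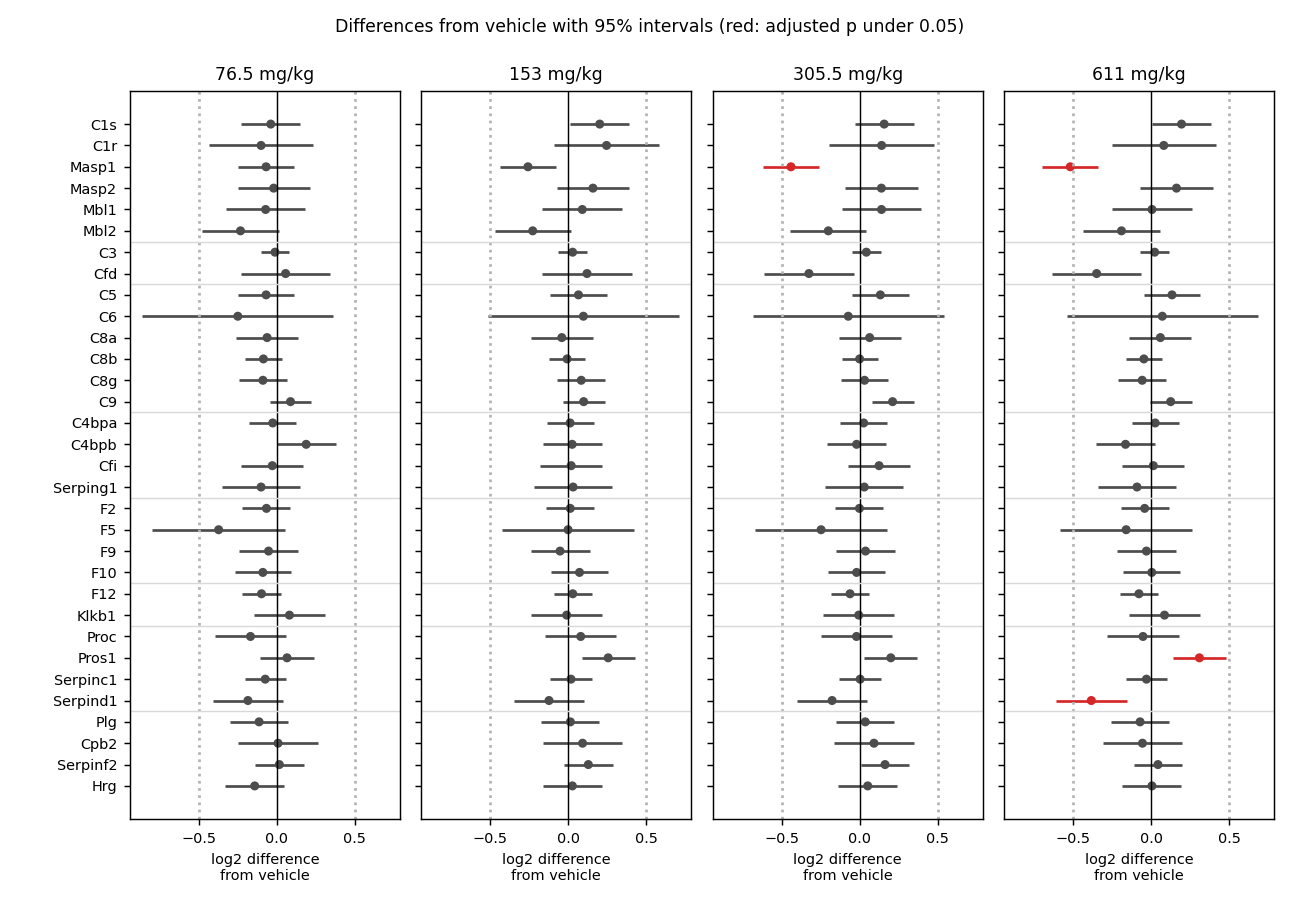
Difference of each of the 32 members from vehicle at each dose, as log2 difference (x axis) with its 95% interval from the fit, 1 panel per dose with 3 treated and 5 vehicle rats. Red marks an adjusted p under 0.05, which Masp1 reached at 305.5 and 611 mg/kg and Pros1 and Serpind1 at 611 mg/kg; dotted lines stand at -0.5 and 0.5.

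Some arrays stood apart. The median correlation of an array with the other 16 was 0.9874 in rat 2 and 0.9853 in rat 3 of the 76.5 mg/kg group and 0.9843 in 611 mg/kg rat 2, below that of every other array. For 611 mg/kg rat 2 the 3' minus 5' signal of the GAPDH control probe sets, which rises as RNA is degraded or shortened in labelling, was 2.89, against 0.93 to 1.56 on the other arrays. 76.5 mg/kg rat 2 was the lowest of 17 rats in 19 of 32 members and below every vehicle rat in 24, with a mean difference from the vehicle mean of -0.24 over the members and 0.03 over all genes. 611 mg/kg rat 2 was below every vehicle rat in 13 members, and 76.5 mg/kg rat 3 was the highest of 17 in 9. These counts per rat were not made over all genes, so whether members exceed other genes in them was not tested. At 76.5 mg/kg 25 of 32 members had a negative difference. Leaving out the 3 arrays left 1 rat at 76.5 mg/kg and 2 at 611 mg/kg. In that 1 rat at 76.5 mg/kg 18 members had a negative difference, with a median of -0.01. The mean of the doses and the slope then also rest on 1 rat at the lowest dose. Without the 3 arrays 1 member was called at 153 mg/kg (Pros1) beside 2.21% of all genes in the same fit, and 1 at 305.5 mg/kg (Masp1) beside 5.47%. At 611 mg/kg 3 were called beside 6.18% (Masp1, Pros1 and C1s), and the same 3 over the mean of the doses beside 6.25%. Along the rank of the dose 6 were called beside 8.52%, with C1s, Masp2 and Pros1 higher and Masp1, Mbl2 and Serpind1 lower.

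**Figure D2:**
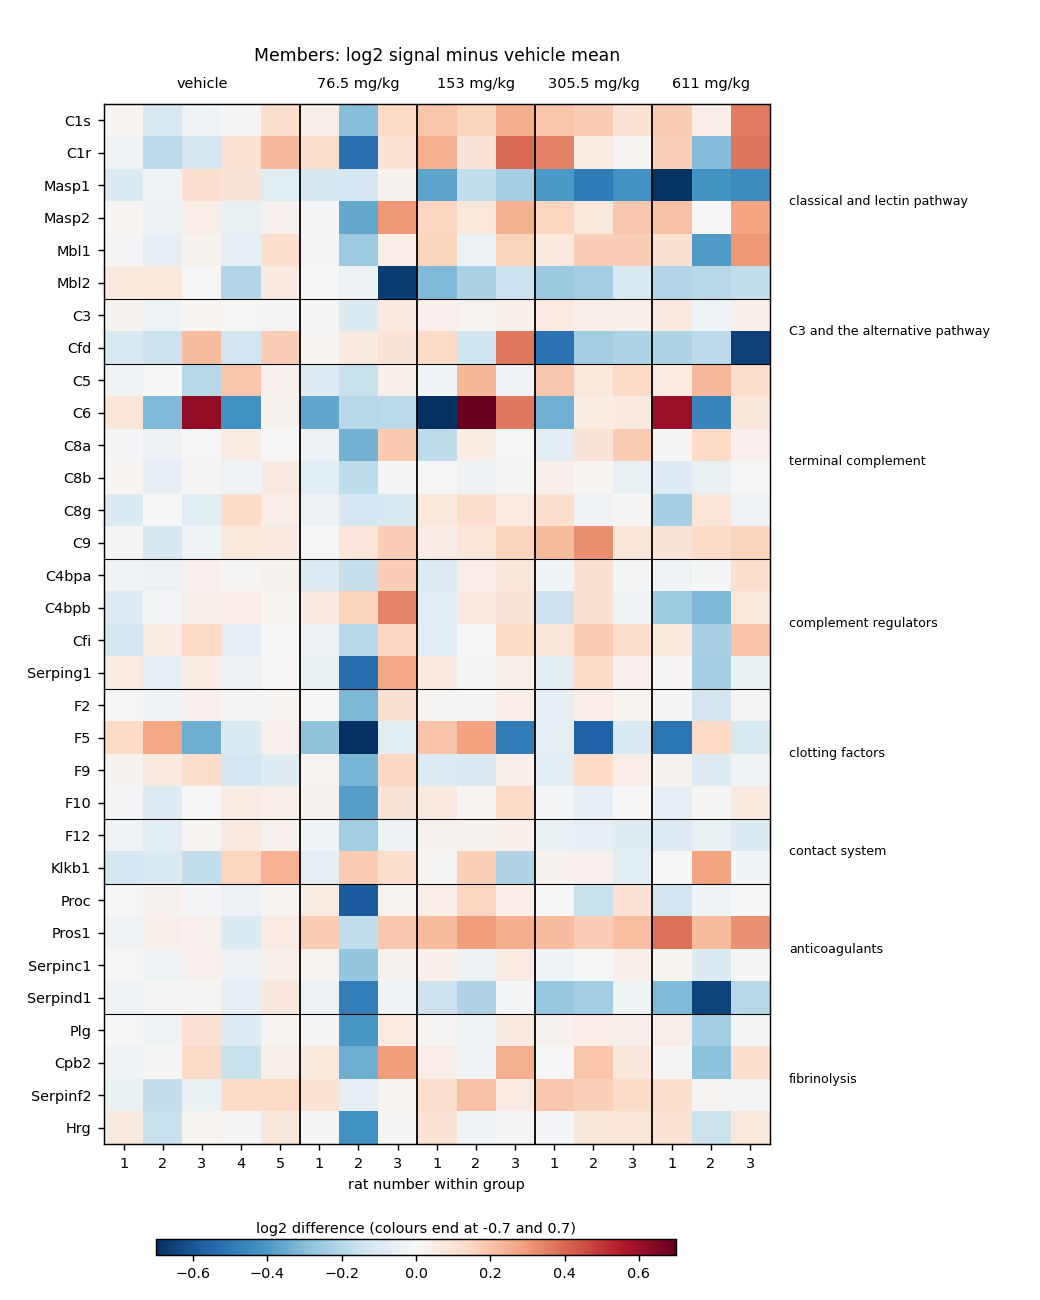
Heat map of the 32 members (rows, by role) in the 17 rats (columns, by group), coloured by log2 signal minus the mean of the 5 vehicle rats, with colours that end at -0.7 and 0.7. The column of 76.5 mg/kg rat 2 is blue over 28 of 32 rows, Masp1 is blue in all rats from 153 mg/kg up, and Pros1 is red in the same rats.

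Markers of endothelial and of stellate cells were lower at the higher doses. At 611 mg/kg, 5 of 6 measured endothelial markers were called lower, beside 2.42% of all genes, with a median difference of -0.57. The mean log2 signal of the list was 8.74 to 8.94 against 9.32 to 9.55 in vehicle rats. Of the 8 markers of stellate cells and fibroblasts 2 passed as lower, with a list mean of 7.50 to 7.63 against 7.87 to 8.17. Of 8 macrophage markers 0 were called in limma and 5 had an unadjusted p under 0.05, beside 24.2% of all genes. Their list mean was 9.20 to 9.63 against 9.30 to 9.86. At 305.5 mg/kg 1 endothelial marker, 1 of stellate cells and 0 of macrophages passed as lower, beside 1.47% of all genes. The list means were 8.69 to 9.15, 7.48 to 7.80 and 9.17 to 9.40. When the 3 arrays were left out, the median difference at 305.5 mg/kg was -0.40 for endothelial markers, -0.29 for those of stellate cells and -0.40 for those of macrophages. At 611 mg/kg these medians were -0.59, -0.40 and -0.27. Over all genes they were 0.00695 at 305.5 mg/kg and 0.00314 at 611 mg/kg. Of 7 hepatocyte markers 0 were called at any dose. An unadjusted p under 0.05 in limma was found for 1 at 305.5 mg/kg and 0 at the other doses, beside 10.7% to 24.2% of all genes. Alb, the gene of serum albumin, lay at 15.34 to 15.36 in all 17 rats. That is the top of the measured range (15.4), where a change of the RNA may not show. Fewer cells of a type and less RNA per cell cannot be told apart in such tissue. C1qa, C1qb and C1qc, macrophage markers, were also among the other complement genes described further on. The part of these markers in the differences of the members was not tested.

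Members of the classical and lectin start of complement held 1 gene that passed, Masp1, which was lower at the higher doses. Masp1 encodes the MASP-1 protease that activates the lectin pathway, and its gene also yields other proteins by splicing. The log2 signal of its probe set 1390585_at was 10.93, 10.99, 11.13, 11.11 and 10.94 in the vehicle rats, 10.91, 10.90 and 11.04 at 76.5 mg/kg, 10.65, 10.84 and 10.79 at 153 mg/kg, 10.61, 10.52 and 10.60 at 305.5 mg/kg, and 10.33, 10.60 and 10.57 at 611 mg/kg. No rat at 305.5 or 611 mg/kg reached the lowest vehicle rat, nor did any at 153 mg/kg, while the 76.5 mg/kg rats overlapped the vehicle range. Masp1 differed from vehicle by -0.07 ± 0.08 at 76.5 mg/kg and -0.26 ± 0.08 at 153 mg/kg (limma adjusted p = 0.831 and 0.228). It fell by 0.44 ± 0.08 at 305.5 mg/kg (adjusted p = 0.00888) and by 0.52 ± 0.08 at 611 mg/kg (adjusted p = 0.00166, 95% interval -0.70 to -0.34), which is 1.36-fold and 1.43-fold lower. Along the dose it fell by 0.14 ± 0.02 per rank (adjusted p = 0.00015), and over the mean of the doses by 0.32 ± 0.06 (adjusted p = 0.00597). The difference between 611 and 305.5 mg/kg was -0.08 ± 0.09 (adjusted p = 0.71). Without 305.5 mg/kg rat 2 the difference at that dose was -0.41 (adjusted p = 0.0574).

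The fall of Masp1 belonged to 1 of its 3 probe sets. In 1389543_at the vehicle mean was 7.11 ± 0.15 (SD, n = 5) and the 611 mg/kg mean 7.03 ± 0.14 (SD, n = 3). In 1371116_at these means were 7.02 ± 0.14 and 6.97 ± 0.41. In a limma fit over all probe sets the differences at 611 mg/kg were -0.09 ± 0.12 and -0.05 ± 0.18 (adjusted p = 0.728 and 0.913), against -0.52 ± 0.09 for 1390585_at (adjusted p = 0.0031). With the mean over the 3 probe sets Masp1 passed in no comparison, at -0.02 for 305.5 mg/kg (adjusted p = 0.961) and -0.22 for 611 mg/kg (adjusted p = 0.151). In that mean each dim probe set counts as much as the bright one. Which transcripts each probe set reads is not given in the sources used here.

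**Figure D3:**
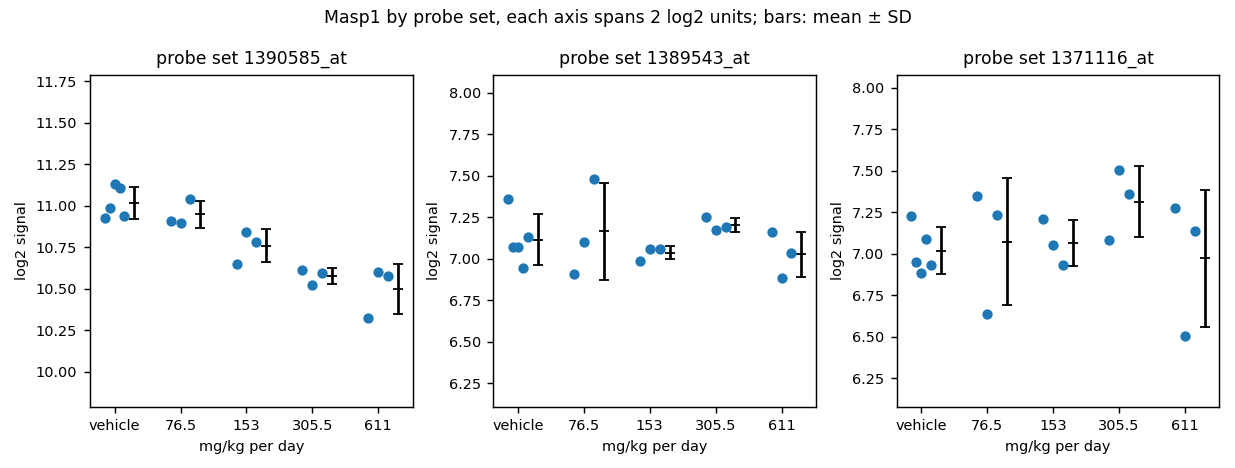
Log2 signal of the 3 Masp1 probe sets (panels, each axis spanning 2 log2 units) in each rat by daily dose, with bars for the mean ± SD. In 1390585_at the rats at 305.5 and 611 mg/kg lie between 10.33 and 10.61, below the vehicle rats at 10.93 to 11.13; in the other panels the groups overlap.

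The promoter of Masp1 is printed with that of Pros1, the member called higher, as the promoters of the members that passed the test and have an entry, and with those of C8a and C4bpa, members that did not pass and that hold matches to several liver factor motifs. They are RefSeq sequences of build GRCr8, 250 bases before to 50 bases after the start of the gene, 5′ to 3′ on the strand of the gene, and capitals mark matches to the motifs searched.
Masp1, chr11:90839472-90839771, plus strand: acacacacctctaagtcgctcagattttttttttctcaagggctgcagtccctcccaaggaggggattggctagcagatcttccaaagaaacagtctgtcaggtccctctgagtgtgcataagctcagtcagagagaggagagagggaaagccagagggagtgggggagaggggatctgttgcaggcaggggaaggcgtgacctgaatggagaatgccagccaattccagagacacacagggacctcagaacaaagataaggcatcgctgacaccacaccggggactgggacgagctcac
Pros1, chr11:13677049-13677348, plus strand: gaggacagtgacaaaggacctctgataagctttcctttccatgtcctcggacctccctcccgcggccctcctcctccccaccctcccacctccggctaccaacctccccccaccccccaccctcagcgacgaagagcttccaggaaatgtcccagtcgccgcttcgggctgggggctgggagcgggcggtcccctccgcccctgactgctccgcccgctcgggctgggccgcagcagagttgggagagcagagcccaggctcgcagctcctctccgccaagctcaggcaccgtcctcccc
C8a, chr5:124866582-124866881, minus strand: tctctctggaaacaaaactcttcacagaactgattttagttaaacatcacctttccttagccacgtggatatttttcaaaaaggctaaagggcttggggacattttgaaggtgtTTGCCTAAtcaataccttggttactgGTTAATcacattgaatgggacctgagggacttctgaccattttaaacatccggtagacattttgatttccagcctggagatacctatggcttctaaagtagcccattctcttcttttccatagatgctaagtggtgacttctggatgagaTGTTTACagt
C4bpa, chr13:44663422-44663721, minus strand: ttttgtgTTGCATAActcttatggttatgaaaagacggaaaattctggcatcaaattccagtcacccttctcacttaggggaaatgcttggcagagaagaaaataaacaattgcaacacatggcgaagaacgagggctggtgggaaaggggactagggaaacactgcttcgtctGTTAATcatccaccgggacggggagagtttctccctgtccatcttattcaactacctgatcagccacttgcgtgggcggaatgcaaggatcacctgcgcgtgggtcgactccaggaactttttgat

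The letters searched on both strands were GTTAAT for HNF1, TGTTTAC for FOXA, TTGCNNAA for C/EBP, CAAAGTCC for HNF4 and TTATGTAA for the D-box, and no matches overlap in the promoters shown. Of the 32 members, 24 had a promoter of 300 bases among 27457 such promoters. GTTAAT was present in 7 of the 24 (29.2%) and in 7.37% of all promoters, TGTTTAC in 4 (16.7%) and in 3.76%, and TTGCNNAA in 9 (37.5%) and in 10.5%. CAAAGTCC and TTATGTAA were in 0 of the 24, against 1.38% and 0.881% of all promoters. In C8a the C/EBP letters began 136 bases and the HNF1 letters 110 bases before the start, and the FOXA letters 40 bases after it. In C4bpa the C/EBP letters began 243 bases and the HNF1 letters 76 bases before the start. F2 and Proc each held the HNF1 letters 38 bases before the start, Plg 67, and C5 held them at 30 and 169 bases. The windows of Masp1 and Pros1 held none of the searched letters, which describes these 300 bases only.

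C1s and C1r, the proteases of the C1 complex, lie next to each other in the genome and were measured separately. C1s was 13.05, 12.93, 13.01, 13.05 and 13.15 in the vehicle rats, 13.08, 12.74 and 13.18 at 76.5 mg/kg, 13.23, 13.19 and 13.29 at 153 mg/kg, 13.23, 13.22 and 13.13 at 305.5 mg/kg, and 13.22, 13.08 and 13.40 at 611 mg/kg. All 3 rats at 153 mg/kg and 2 of 3 at 305.5 and at 611 mg/kg lay above the vehicle range, and at 76.5 mg/kg the groups overlapped. Its difference was 0.20 ± 0.09 at 153 mg/kg and 0.19 ± 0.09 at 611 mg/kg (limma adjusted p = 0.388 and 0.194). C1s passed at 611 mg/kg when the 3 arrays of low correlation were left out (0.27, adjusted p = 0.0302), where it also passed over the mean of the doses (0.17, 0.0496) and along the rank of the dose (0.06 per rank, 0.0122), and with array weights it passed in the same 3 comparisons (adjusted p = 0.0139, 0.0382 and 0.0119). The array weights were lowest for those same 3 arrays, at 0.27 to 0.31, so weighting and omission are much alike and not separate checks. C1r, with differences of -0.10 to 0.24 over the 4 doses, did not pass at any dose. Masp2, the MASP-2 protease that cleaves C4 in the lectin pathway, differed by -0.02 at 76.5 mg/kg and by 0.14 to 0.16 at the higher doses, with the lowest adjusted p at 0.378. These values are of the brightest of its 3 probe sets, 1371025_at. In 1371098_a_at the differences were 0.09, 0.16, 0.22 and -0.01 at the rising doses, and in 1393156_at -0.18, 0.15, -0.31 and 0.15. With all arrays the slopes of the 3 probe sets were 0.05, 0.02 and 0.01 per rank. Mbl1 and Mbl2 encode the mannose-binding lectins that recognise microbial sugars. Mbl1 differed by -0.07 to 0.14, and Mbl2 by -0.23, -0.23, -0.20 and -0.19 at the rising doses (lowest adjusted p = 0.326), with vehicle rats at 12.87 to 13.15. These values are of its brighter probe set, 1379240_at, and in 1387528_at the differences were -0.18, 0.06, 0.07 and 0.01. At 76.5 mg/kg the difference of the brighter one was -0.02 without rat 3. Along the rank of the dose Mbl2 passed as lower without that rat (-0.06 per rank, adjusted p = 0.0423) or with the 3 arrays left out (-0.06, 0.0483).

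C3 is where all complement routes converge. Its log2 signal was 14.85, 14.80, 14.84, 14.83 and 14.82 in the vehicle rats, 14.82, 14.73 and 14.89 at 76.5 mg/kg, 14.86, 14.85 and 14.86 at 153 mg/kg, 14.89, 14.86 and 14.87 at 305.5 mg/kg, and 14.89, 14.80 and 14.87 at 611 mg/kg. All 3 rats at 305.5 mg/kg and 2 of 3 at 153 and at 611 mg/kg lay above the vehicle range, by small steps, and the 76.5 mg/kg rats lay on both sides of it. The difference at 305.5 mg/kg was 0.04 ± 0.04 (limma adjusted p = 0.746). Its difference at 611 mg/kg was 0.02 ± 0.04, with a 95% interval of -0.07 to 0.12. These signals lie near the top of the measured range (15.4), where a change of the RNA may not show. Cfd encodes factor D, the protease that cleaves factor B in the alternative pathway and which fat cells secrete in rodents. It was 8.33, 8.29, 8.66, 8.31 and 8.62 in the vehicle rats, 8.46, 8.50 and 8.53 at 76.5 mg/kg, 8.58, 8.30 and 8.81 at 153 mg/kg, 7.93, 8.20 and 8.22 at 305.5 mg/kg, and 8.23, 8.26 and 7.79 at 611 mg/kg. All 6 rats at 305.5 and 611 mg/kg lay below the lowest vehicle rat, and the rats at 76.5 and 153 mg/kg overlapped the vehicle range. The differences of -0.33 ± 0.14 and -0.35 ± 0.14 did not pass in limma (adjusted p = 0.28 and 0.127), nor did the slope of -0.10 ± 0.03 per rank (adjusted p = 0.0926). Of 4 adipocyte markers 0 were called in limma at 611 mg/kg and 1 had an unadjusted p under 0.05, beside 24.2% of all genes. These markers had a median of -0.19 and a list mean of 5.25 to 5.50 against 5.49 to 5.83 in vehicle rats. Their part in the Cfd values was not tested.

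Of the terminal components C5, C6, C8a, C8b, C8g and C9, 0 of 6 passed in limma at any dose. C9, the unit that polymerises into the pore, was 13.75, 13.63, 13.71, 13.82 and 13.81 in the vehicle rats, 13.75, 13.83 and 13.92 at 76.5 mg/kg, 13.80, 13.83 and 13.90 at 153 mg/kg, 13.96, 14.07 and 13.83 at 305.5 mg/kg, and 13.84, 13.87 and 13.90 at 611 mg/kg. Rats at 305.5 and 611 mg/kg lay above all vehicle rats, by small margins, and 2 of 3 did at 76.5 and at 153 mg/kg. C9 differed by 0.21 ± 0.06 at 305.5 mg/kg (adjusted p = 0.104) and by 0.13 ± 0.06 at 611 mg/kg (adjusted p = 0.239), and C9 was the only terminal component with an unadjusted p under 0.05 at a dose. C5, the precursor of the C5a signal and of the C5b that starts the pore, was 12.48, 12.50, 12.31, 12.70 and 12.54 in the vehicle rats, 12.42, 12.35 and 12.54 at 76.5 mg/kg, 12.49, 12.74 and 12.49 at 153 mg/kg, 12.70, 12.58 and 12.64 at 305.5 mg/kg, and 12.56, 12.73 and 12.63 at 611 mg/kg. Its groups overlapped at every dose and its largest difference was 0.13 (lowest adjusted p = 0.354). C8a and C8b, neighbours in the genome, and C8g encode the 3 chains of C8, and their differences lay between -0.09 and 0.08. C6, which binds C5b, spread from 8.39 to 9.88, and those 2 values were both from rats at 153 mg/kg.

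Of the complement regulators 0 of 4 passed in limma at any dose, and 0 had an unadjusted p under 0.05 at any dose. C4bpb encodes the beta chain of C4b-binding protein, which carries protein S in plasma, and was 12.85, 12.94, 12.99, 12.99 and 12.96 in the vehicle rats, 13.01, 13.10 and 13.29 at 76.5 mg/kg, 12.86, 13.01 and 13.04 at 153 mg/kg, 12.80, 13.05 and 12.92 at 305.5 mg/kg, and 12.69, 12.63 and 13.02 at 611 mg/kg. The 76.5 mg/kg rats lay above all vehicle rats and 2 of 3 rats at 611 mg/kg below them. Its difference was 0.19 ± 0.09 at 76.5 mg/kg and -0.16 ± 0.09 at 611 mg/kg (limma adjusted p = 0.474 and 0.274). C4bpa, the alpha chain, which binds C4b, differed by -0.03 to 0.03 over the doses. Cfi encodes factor I, the protease that inactivates C3b and C4b, and was 13.30, 13.47, 13.56, 13.36 and 13.43 in the vehicle rats, 13.38, 13.23 and 13.57 at 76.5 mg/kg, 13.35, 13.42 and 13.56 at 153 mg/kg, 13.50, 13.60 and 13.54 at 305.5 mg/kg, and 13.49, 13.20 and 13.62 at 611 mg/kg. Its groups overlapped at every dose, with differences of -0.03 to 0.12. Serping1, the C1 inhibitor, which blocks C1r, C1s, the MASPs, kallikrein and factor XII, differed by -0.10 to 0.03.

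Of the clotting factors and the contact system 0 of 6 members passed in limma at any dose, and 0 had an unadjusted p under 0.05 at any dose. F2 encodes prothrombin and was 14.03, 14.00, 14.06, 14.03 and 14.04 in the vehicle rats, 14.03, 13.72 and 14.14 at 76.5 mg/kg, 14.04, 14.02 and 14.08 at 153 mg/kg, 13.97, 14.08 and 14.05 at 305.5 mg/kg, and 14.03, 13.91 and 14.04 at 611 mg/kg. Apart from 76.5 mg/kg rats 2 and 3, the F2 values of 15 rats lay between 13.91 and 14.08. F5, factor V, the cofactor of factor Xa, was 11.04, 11.17, 10.55, 10.80 and 10.93 in the vehicle rats, 10.62, 10.14 and 10.82 at 76.5 mg/kg, 11.10, 11.18 and 10.41 at 153 mg/kg, 10.83, 10.33 and 10.79 at 305.5 mg/kg, and 10.38, 11.04 and 10.79 at 611 mg/kg. It varied between rats of 1 group with an SD of 0.315, and its intervals reached from -0.80 to 0.05 at 76.5 mg/kg. F9 and F10, the proteases factor IX and factor X, differed by -0.05 to 0.04 and by -0.09 to 0.07. F12, factor XII, which starts the contact pathway, was 13.38, 13.32, 13.41, 13.46 and 13.43 in the vehicle rats, 13.38, 13.16 and 13.37 at 76.5 mg/kg, 13.43, 13.43 and 13.43 at 153 mg/kg, 13.35, 13.34 and 13.32 at 305.5 mg/kg, and 13.31, 13.35 and 13.31 at 611 mg/kg. Its groups overlapped at every dose, although 2 of 3 rats at 611 mg/kg lay just under the lowest vehicle rat, and its differences lay between -0.10 and 0.03. Klkb1, plasma prekallikrein, was 12.89, 12.91, 12.84, 13.16 and 13.26 in the vehicle rats, 12.95, 13.19 and 13.14 at 76.5 mg/kg, 13.02, 13.18 and 12.80 at 153 mg/kg, 13.04, 13.04 and 12.94 at 305.5 mg/kg, and 13.01, 13.29 and 12.99 at 611 mg/kg. Its groups overlapped at every dose.

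The anticoagulants held both other members that passed, in opposite directions. Pros1 encodes protein S, the cofactor with which activated protein C destroys factors Va and VIIIa. Its log2 signal was 11.63, 11.69, 11.68, 11.55 and 11.71 in the vehicle rats, 11.83, 11.48 and 11.84 at 76.5 mg/kg, 11.87, 11.94 and 11.91 at 153 mg/kg, 11.87, 11.82 and 11.86 at 305.5 mg/kg, and 12.04, 11.87 and 11.97 at 611 mg/kg. Every rat at 153, 305.5 and 611 mg/kg lay above every vehicle rat, and at 76.5 mg/kg 2 rats lay above and rat 2 below the vehicle range. Pros1 differed by 0.26 ± 0.08 at 153 mg/kg and 0.20 ± 0.08 at 305.5 mg/kg (limma adjusted p = 0.213 and 0.262), and rose by 0.31 ± 0.08 at 611 mg/kg (adjusted p = 0.0278, 1.24-fold, 95% interval 0.14 to 0.48). Along the dose it rose by 0.08 ± 0.02 per rank (adjusted p = 0.0145), and its mean difference over the doses was 0.21 ± 0.06 (adjusted p = 0.0579). The call at 611 mg/kg ended without vehicle rat 1 (0.30, adjusted p = 0.0586), vehicle rat 4 (0.285, 0.0609), 611 mg/kg rat 1 (0.27, 0.084) or 611 mg/kg rat 3 (0.30, 0.0753) and with arrays centred on their median (0.26, 0.0738). Without the 3 arrays that stood apart Pros1 passed at 153 mg/kg too (0.26, adjusted p = 0.0294).

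Serpind1 encodes heparin cofactor II, a serpin that inhibits thrombin. Its log2 signal was 13.41, 13.45, 13.45, 13.37 and 13.52 in the vehicle rats, 13.40, 12.96 and 13.41 at 76.5 mg/kg, 13.29, 13.23 and 13.43 at 153 mg/kg, 13.18, 13.20 and 13.41 at 305.5 mg/kg, and 13.13, 12.79 and 13.25 at 611 mg/kg. All rats at 611 mg/kg lay below every vehicle rat, and at each of the other doses at least 1 rat lay inside the vehicle range. Serpind1 fell by 0.38 ± 0.11 at 611 mg/kg (limma adjusted p = 0.0382, 1.30-fold lower, 95% interval -0.61 to -0.16). Its differences at the other doses were -0.19 ± 0.11, -0.12 ± 0.11 and -0.18 ± 0.11 (adjusted p = 0.576, 0.681 and 0.518), and its slope was -0.08 ± 0.02 per rank (adjusted p = 0.0552). The lowest value was that of 611 mg/kg rat 2, the array with the raised GAPDH 3' minus 5' signal, and without it the difference was -0.25 (adjusted p = 0.247). The call also ended without any single vehicle rat 1 to 5 (adjusted p = 0.0654, 0.0631, 0.0641, 0.0534 and 0.0809) or without 611 mg/kg rat 1 (0.0521). Proc, the zymogen of protein C, and Serpinc1, antithrombin, differed by -0.17 to 0.08 and by -0.07 to 0.02 over the doses.

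**Figure D4:**
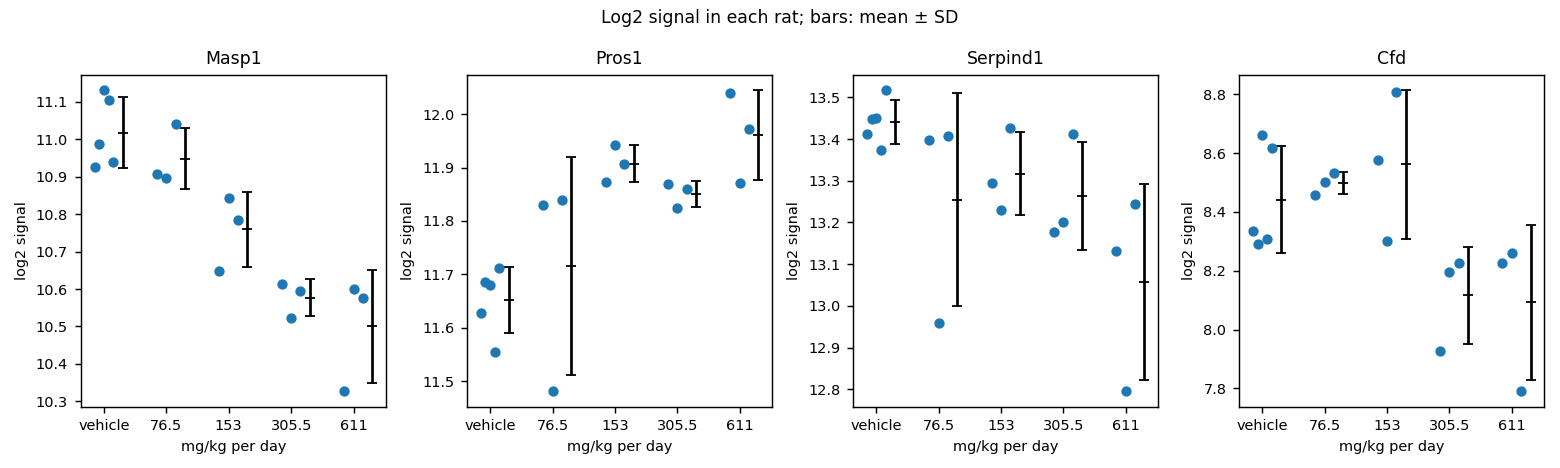
Log2 signal of Masp1, Pros1, Serpind1 and Cfd in each rat (points) by daily dose, with bars for the mean ± SD of 5 vehicle or 3 treated rats. The rats from 153 mg/kg up lie below all vehicle rats for Masp1 and above them for Pros1, Serpind1 is lower than vehicle in all 3 rats at 611 mg/kg, and Cfd is lower in all rats at the 305.5 and 611 mg/kg doses without passing the test.

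Of the fibrinolysis members 0 of 4 passed in limma at any dose. Serpinf2, alpha-2-antiplasmin, the inhibitor of plasmin, was 12.90, 12.79, 12.91, 13.08 and 13.10 in the vehicle rats, 13.05, 12.89 and 12.97 at 76.5 mg/kg, 13.08, 13.16 and 13.01 at 153 mg/kg, 13.14, 13.12 and 13.09 at 305.5 mg/kg, and 13.08, 12.97 and 12.95 at 611 mg/kg. At 305.5 mg/kg 2 of 3 rats lay above the vehicle range and the other just inside it, and the other doses overlapped it. Its difference there was 0.16 ± 0.07 (adjusted p = 0.341), the only unadjusted p under 0.05 among the 4. Hrg, histidine-rich glycoprotein, which binds heparin and plasminogen, was 14.09, 13.87, 14.05, 14.02 and 14.11 in the vehicle rats, 14.02, 13.60 and 14.04 at 76.5 mg/kg, 14.12, 14.01 and 14.03 at 153 mg/kg, 14.02, 14.10 and 14.11 at 305.5 mg/kg, and 14.12, 13.88 and 14.10 at 611 mg/kg. Its groups overlapped apart from 76.5 mg/kg rat 2, which was the lowest of all rats. Plg, plasminogen, and Cpb2, the carboxypeptidase that protects fibrin from plasmin, differed by -0.11 to 0.04 and by -0.06 to 0.09.

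Counted by non-overlap, 1, 5, 6 and 5 of 32 members had all 3 treated rats outside the vehicle range at the rising doses, beside 6.3%, 12.7%, 13.7% and 18.6% of all genes. At 153 mg/kg 4 members lay above and 1 below, beside 8.3% and 4.42% of all genes. At 305.5 mg/kg 4 lay above and 2 below, beside 6.37% and 7.34%, and at 611 mg/kg 2 above and 3 below, beside 11.5% and 7.13%. At 611 mg/kg these were C9 and Pros1 above and Masp1, Cfd and Serpind1 below.

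Further genes of both pathways were taken from lists of 31 other complement genes (22 measured) and 37 other coagulation and fibrinolysis genes (32 measured). Of other complement genes 0 higher and 1 lower passed at 305.5 mg/kg and again at 611 mg/kg, beside 1.47% and 2.42% of all genes lower. The list medians were -0.12 and -0.08. The gene that passed was Fcna, ficolin A, a lectin pathway recognition protein made by macrophages in mouse. It was 9.79, 9.42, 9.91, 9.72 and 9.62 in the vehicle rats, 9.47, 9.53 and 9.81 at 76.5 mg/kg, 9.89, 9.56 and 9.66 at 153 mg/kg, 9.15, 9.03 and 9.16 at 305.5 mg/kg, and 9.27, 9.16 and 8.79 at 611 mg/kg. All 6 rats at 305.5 and 611 mg/kg lay below every vehicle rat. Fcna fell by 0.58 ± 0.13 at 305.5 mg/kg and by 0.62 ± 0.13 at 611 mg/kg (limma adjusted p = 0.0236 and 0.00818), and the macrophage list means beside it were given above. The call at 305.5 mg/kg ended without vehicle rats 1 or 3 or any 1 of the 3 treated rats (adjusted p = 0.06, 0.0621, 0.0769, 0.115 and 0.0752), and that at 611 mg/kg without rat 3 (-0.48, adjusted p = 0.0503). Along the dose Fcna, Itgb2, a leukocyte integrin chain of the complement receptors CR3 and CR4, and Colec11, collectin 11, passed with slopes of -0.16 ± 0.03, -0.11 ± 0.03 and -0.08 ± 0.02 per rank (adjusted p = 0.00664, 0.037 and 0.0423). The slope of Fcna passed under all 25 alternatives, while that of Itgb2 did not pass under 10 of 25, including omission of the 3 arrays of low correlation, and that of Colec11 did not under 11 of 25. Without the 3 arrays the medians of the other complement genes were -0.12 at 305.5 mg/kg and -0.04 at 611 mg/kg. Beside them the medians of all genes were 0.00695 and 0.00314.

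Of the other coagulation genes 0 of 32 passed in limma at 76.5 and at 153 mg/kg. There 4 and 5 had an unadjusted p under 0.05, beside 10.7% and 11.9% of all genes. At 305.5 mg/kg 1 was higher and 1 lower, beside 2.22% of all genes in either direction. At 611 mg/kg 2 were higher and 0 lower, beside 7.46%. The list medians at these 2 doses were -0.07 and -0.09. Without the 3 arrays that stood apart the list medians were -0.07 at 305.5 mg/kg and -0.06 at 611 mg/kg, beside 0.00695 and 0.00314 over all genes. Serpina5 encodes the protein C inhibitor, a serpin that blocks activated protein C. It was 6.41, 6.71, 6.62, 6.49 and 6.40 in the vehicle rats, 6.89, 7.80 and 6.63 at 76.5 mg/kg, 7.22, 7.63 and 7.30 at 153 mg/kg, 7.86, 6.96 and 7.62 at 305.5 mg/kg, and 7.25, 8.06 and 7.41 at 611 mg/kg. All rats from 153 mg/kg up lay above every vehicle rat, with wide gaps between rats of 1 dose. Serpina5 rose by 0.96 ± 0.24 at 305.5 mg/kg and by 1.05 ± 0.24 at 611 mg/kg (limma adjusted p = 0.0446 and 0.0138), the latter 2.07-fold. Without 611 mg/kg rat 2 the difference at that dose was 0.81 (adjusted p = 0.104), and at 305.5 mg/kg the call ended without any single vehicle rat (adjusted p = 0.0592 to 0.0982), without rat 1 (0.255) or without rat 3 (0.188). Over the mean of the doses Serpina5 rose by 0.86 ± 0.17 and along the rank of the dose by 0.27 ± 0.05 per rank (adjusted p = 0.00895 and 0.00631).

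Vkorc1l1 encodes a vitamin K epoxide reductase, an enzyme that recycles vitamin K. It was 8.50, 8.73, 8.78, 8.16 and 8.50 in the vehicle rats, 8.59, 8.68 and 8.61 at 76.5 mg/kg, 8.52, 8.91 and 8.62 at 153 mg/kg, 8.56, 8.69 and 8.66 at 305.5 mg/kg, and 9.002, 9.28 and 9.13 at 611 mg/kg. Only the 611 mg/kg rats all lay above the vehicle range, and its difference at 305.5 mg/kg was 0.10 ± 0.13. It rose by 0.60 ± 0.13 at 611 mg/kg (limma adjusted p = 0.00864), and without 611 mg/kg rat 2 the difference was 0.53 (adjusted p = 0.0556). Its slope of 0.12 ± 0.03 per rank passed (adjusted p = 0.0335), but not under 8 of 25 alternatives. Thbd encodes thrombomodulin, the endothelial receptor on which thrombin activates protein C. It was 7.39, 7.33, 7.38, 7.07 and 7.29 in the vehicle rats, 6.74, 7.16 and 7.47 at 76.5 mg/kg, 6.71, 7.10 and 7.08 at 153 mg/kg, 6.63, 6.80 and 6.41 at 305.5 mg/kg, and 6.90, 7.00 and 6.65 at 611 mg/kg. All 6 rats at 305.5 and 611 mg/kg lay below every vehicle rat. Thbd fell by 0.68 ± 0.15 at 305.5 mg/kg and differed by -0.44 ± 0.15 at 611 mg/kg (limma adjusted p = 0.0204 and 0.0771), beside the endothelial list means given above, whose part was not tested. The call ended without vehicle rat 1 (adjusted p = 0.0514), vehicle rat 3 (0.0515), 305.5 mg/kg rat 1 (0.0765) or rat 3 (0.133), and with the mean over its probe sets (-0.24, adjusted p = 0.274). Thbd fell by 0.14 ± 0.04 per rank (adjusted p = 0.0186) and by 0.41 ± 0.11 over the mean of the doses (adjusted p = 0.041), the latter lost under 11 of 25 alternatives.

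Serpine2 encodes protease nexin-1, a serpin that inhibits thrombin, and passed along the rank of the dose alone. It was 8.85, 8.55, 9.11, 8.26 and 8.75 in the vehicle rats, 8.80, 8.61 and 8.89 at 76.5 mg/kg, 8.60, 8.63 and 8.82 at 153 mg/kg, 7.96, 8.15 and 8.37 at 305.5 mg/kg, and 8.28, 8.27 and 8.36 at 611 mg/kg. The lowest vehicle rat was above 2 of 3 rats at 305.5 mg/kg, and the rats at the other doses lay inside the wide vehicle range. Its slope was -0.13 ± 0.04 per rank (limma adjusted p = 0.0374) and was lost under 11 of 25 alternatives, including omission of the 3 arrays of low correlation. The differences of -0.54 ± 0.15 at 305.5 mg/kg and -0.40 ± 0.15 at 611 mg/kg did not pass (adjusted p = 0.0658 and 0.109).

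**Figure D5:**
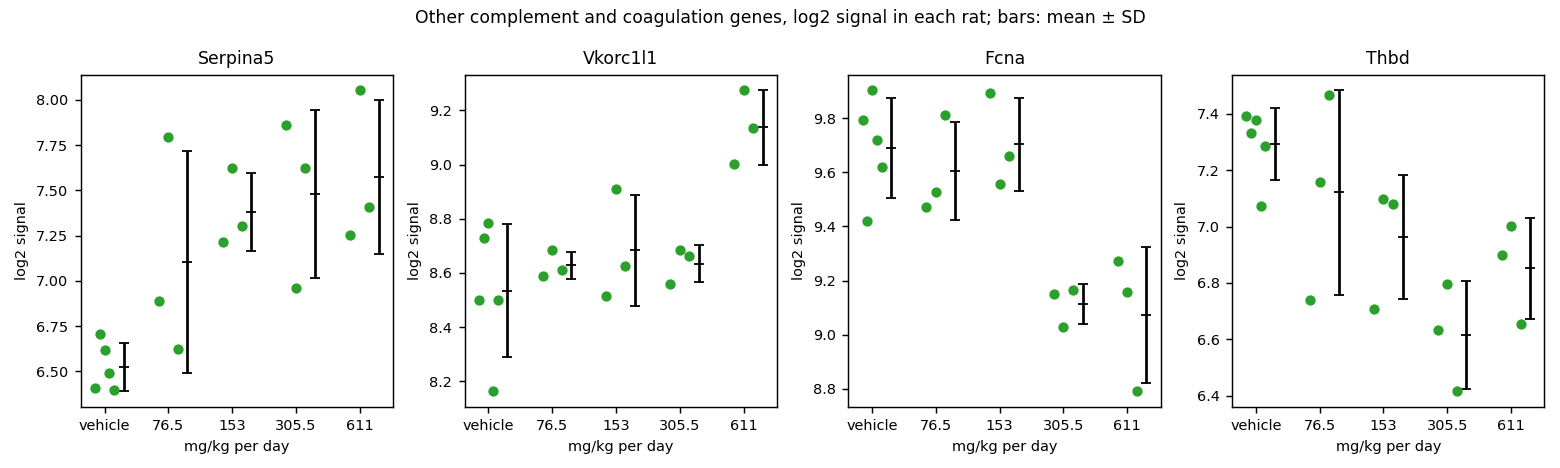
Log2 signal of Serpina5, Vkorc1l1, Fcna and Thbd in each rat (points) by daily dose, with bars for the mean ± SD of 5 vehicle or 3 treated rats. Serpina5 is above all vehicle rats from 153 mg/kg up, Vkorc1l1 in all rats at 611 mg/kg, and Fcna and Thbd are below them at 305.5 and 611 mg/kg.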

How the data were processed

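The deposited values are log2 signals that the authors made with RMA, per the submitters' processing notes. The program that ran it is not given in the sources used here. Signals spanned 2.61 to 15.4 and the medians of the 17 arrays, all of which were used, 6.29 to 6.4. Of 31099 probe sets, 57 were controls, 20826 carried 1 gene symbol and 436 several in the platform's annotation of 2016. For each of 14217 genes the brightest probe set by its average on the 17 arrays was taken, without a filter on signal, and 3 members had several probe sets.

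Groups came from the sample labels, and each rat is 1 replicate. Tests were run in limma 3.58.1 (R 4.3.3) with a linear fit to the 17 arrays and a term per group (eBayes with trend, 12 residual degrees of freedom), which was tested on simulated data. The comparisons of this fit were each dose against vehicle, 611 against 305.5 mg/kg and the mean of the 4 doses against vehicle. The slope over the rank of the dose came from a separate fit to the same arrays, also by eBayes with trend. That fit held an intercept and the rank as a number in place of the group terms, so its residual degrees of freedom differ. P-values were adjusted by Benjamini-Hochberg over all genes within a comparison. The number of arrays limits the precision.

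Alternatives were the mean over probe sets, leaving out the dimmest 40% of genes, centring arrays on their median, eBayes without trend, array weights, a replicate block, only the groups compared, the GAPDH control difference as a covariate, omission of 3 arrays that stood apart, and omission of each rat. Values in every rat are given for members called at a dose and for up to 2 members per role with the smallest p over the mean of the doses and the slope; other genes of both pathways are named where they passed. The members, lists and alternatives were chosen with earlier results of these data known.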

Additional observations from a re-analysis of the deposited data

Results flagged for a closer look

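Mbl2 in vehicle rat 4 had a log2 signal of 12.87, while the other vehicle rats lay between 13.07 and 13.15. The gap to the nearest rat was 0.737 of the whole range, above Dixon's critical value of 0.71 for 5 values, and 1 of 32 members tested in the vehicle group stood out in this way. Chance flags about 1 in 20 groups. The treated rats of Mbl2 lay from 12.41 to 13.07, and its difference from vehicle did not pass the test at any dose.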

How the results depend on the processing

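The counts of members called stayed at 0 in limma for 76.5 mg/kg (17 alternatives) and for 611 against 305.5 mg/kg (15 alternatives), where 0 members had an unadjusted p under 0.05 in either. At 153 mg/kg the count of 0 became 1, Pros1, with array weights, with only the groups compared and without the 3 arrays that stood apart. At 305.5 mg/kg the count of 1 became 0 with the mean over probe sets and 2 with array weights, and ranged from 0 to 1 on leaving out 1 rat, with 0 without 305.5 mg/kg rat 2. At 611 mg/kg the count of 3 became 5 with array weights and 1 with the replicate block, and ranged from 1 to 2 on leaving out 1 rat, with 1 without vehicle rat 1, vehicle rat 4 or 611 mg/kg rat 1. Over the mean of the doses the count of 1 became 0 with the mean over probe sets, 2 without the dimmest 40% of genes, and 3 with array weights, without the 3 arrays or with the GAPDH covariate, and ranged from 1 to 2, with 2 without 76.5 mg/kg rat 2 or 611 mg/kg rat 2. Along the rank of the dose the count of 2 became 1 with the mean over probe sets and with the replicate block, 7 with array weights, 6 without the 3 arrays and 4 with the GAPDH covariate, and ranged from 2 to 3 on leaving out 1 rat. The share of all genes called in the same refit was given above only for omission of the 3 arrays. Counts under the other alternatives therefore cannot be set against a general rise or fall in calls. No direction of a called member turned under any of these alternatives, and the cause of each change was not tested.

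The replicate block used rat numbers that the groups share. The labels do not say that these numbers pair rats. Deviations of same-numbered rats of different groups correlated at -0.259 to 0.399 (median 0.0111, 30 pairs) and those of other pairs at -0.353 to 0.341 (median -0.0153, 84 pairs). With the block the 611 mg/kg call of Pros1 had an adjusted p of 0.108 and that of Serpind1 0.0553, and the slope of Pros1 0.0764; Masp1 passed at 305.5 and 611 mg/kg. Serpina5 at 611 mg/kg had 0.073 and Fcna at 305.5 mg/kg 0.0754.

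With 3 rats per dose, differences of single members had a median standard error of 0.09. The smallest difference of a member called at a dose was 0.31 (Pros1 at 611 mg/kg), and larger ones also failed, such as -0.35 for Cfd at 611 mg/kg (limma adjusted p = 0.127).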

Other observations

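Among 12 measured liver-enriched transcription factors, 1 rose and 1 fell at 611 mg/kg, beside 7.46% of all genes called in either direction. Foxa3, a forkhead factor of hepatocytes, fell by 1.05 ± 0.16 (limma adjusted p = 0.00119), from a vehicle mean of 9.45 ± 0.18 (SD, n = 5) to 8.41 ± 0.22 (SD, n = 3), and passed under all 17 alternatives. Foxa1, a related forkhead factor, rose by 0.70 ± 0.19 (adjusted p = 0.0338). It did not pass without 611 mg/kg rat 2, without the 3 arrays that stood apart, without vehicle rat 1, 4 or 5, or with the replicate block. Among 23 other secreted plasma proteins of the liver, 0 passed in limma at any single dose. At the rising doses 2, 1, 2 and 5 had an unadjusted p under 0.05, beside 10.7%, 11.9%, 13.5% and 24.2% of all genes. Over the mean of the 4 doses 1 of 23 passed, beside 4.01% of all genes. This was Orm1, an acute phase glycoprotein, which rose by 0.64 ± 0.14 (limma adjusted p = 0.0178). It did not pass under 2 of 25 alternatives, without vehicle rat 5 or with the replicate block.

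At 611 mg/kg Hbb, the hemoglobin beta chain, fell by 1.63 on the log2 scale (limma adjusted p = 0.000689), and Alas2, the heme synthesis enzyme of red cell precursors, fell by 1.34 (adjusted p = 0.0028). Epcam, a bile duct cell marker, rose by 0.72 ± 0.17 and Krt7, another, fell by 0.43 ± 0.12 at the same dose (adjusted p = 0.0167 and 0.0332). Without 611 mg/kg rat 2, the array with the raised GAPDH 3' minus 5' signal, or without the 3 arrays that stood apart, the differences were 0.53 and -0.25 and neither passed. In all Epcam did not pass under 3 of 17 alternatives and Krt7 under 8 of 16.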
